A study of Mus musculus with 3 samples.

Results

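The *Rgs* gene cluster of mouse chromosome 1 was examined in the chromatin of hematopoietic stem cells (HSCs). It comprises 5 genes, *Rgs2*, *Rgs13*, *Rgs1*, *Rgs21* and *Rgs18*, of the 21755 protein-coding genes counted. The members were chosen by name and position, together with the regions between them and 100 kb on each side, and variation over cells was part of the choice, so the levels below are descriptions. HSCs were sorted from bone marrow of wild-type C57BL/6 mice (C57BL/6J in the study's methods) aged 8 weeks, recorded as female, as LSK CD150+CD48-CD34- cells, the long-term HSC gate. The number of mice pooled was not given. The preparation was profiled by DOGMA-seq, which reads chromatin (ATAC), RNA and antibody tags from the same cells, and gave 1 library of each kind. In ATAC a transposase cuts open DNA, and each fragment between neighboring cuts is counted. The files analysed here hold 1 preparation and 1 condition, so cells are not replicates and no p-value is given. Intervals are 95% intervals that cover counting error only.

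RGS proteins are the brakes of G protein-coupled receptors. A receptor loads a G alpha subunit with GTP, and an RGS protein speeds up the hydrolysis of that GTP, which ends the signal. In blood, such receptors read chemokines, lipids, thrombin and ADP, and so govern migration, retention and platelet activation. *Rgs1* is known from activated lymphocytes, where it dampens responses to chemokines. *Rgs2* acts mainly on the Gq class of subunits and is known as a gene induced quickly by stimuli. *Rgs18* is expressed in megakaryocytes and platelets, *Rgs13* in germinal center B cells and mast cells, and *Rgs21* in taste tissue.

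A barcode entered when it was called as a cell and had more than 3000 fragments in peaks, which left 3108 of 3757 called cells. The shallowest of them had 3003 fragments in peaks, and the deepest called cell left out had 2990. These cells held 37137164 fragments, 88.4% of all, with a median of 11457 per cell and a range of 3977 to 194399. The deepest cell stood apart, since the next had 66654. A promoter here is the window of 500 bp on each side of the start of the principal transcript, and it was called open with at least 10 times the mean fragment number of the genome. Of 10 HSC markers 8 had an open promoter, all but *Slamf1* and *Ly6a*. None of the markers of T cells (4), B cells (4), granulocytes (5), erythroid cells (4) or non-blood tissue (4) had an open promoter, and 4 of 7 megakaryocyte markers did, near the 55.5% of all protein-coding genes.

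The 5 genes are neighbors, all transcribed from the minus strand, and no other protein-coding gene overlapped chr1:143899338-144875435 (GRCm38), an interval of 976.098 kb. In the order of the chromosome, *Rgs2* lies at chr1:143999338-144004161, *Rgs13* at chr1:144138654-144177372, *Rgs1* at chr1:144242296-144249242, *Rgs21* at chr1:144516648-144567667 and *Rgs18* at chr1:144752683-144775435. The 3 open promoters are shown first, since they differ in kind. Each is 200 bases that end just before the outermost annotated start, printed on the minus strand, so transcription runs to the right. Capitals mark matches, on either strand, to 7 short strings: AGATAA for the GATA family, AGGAAG for the ETS family, TGTGGT for the RUNX family, TGANTCA for AP-1 factors, TGACGT for factors of the CRE, GGGCGG for the SP/KLF family and AGGNGGC for CTCF. No matches overlapped.
Rgs2 promoter, chr1:144004162-144004361: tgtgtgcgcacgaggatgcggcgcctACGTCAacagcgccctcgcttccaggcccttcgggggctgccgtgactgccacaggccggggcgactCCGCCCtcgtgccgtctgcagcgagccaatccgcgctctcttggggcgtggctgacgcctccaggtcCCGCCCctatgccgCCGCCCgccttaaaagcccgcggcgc
Rgs1 promoter, chr1:144249243-144249442: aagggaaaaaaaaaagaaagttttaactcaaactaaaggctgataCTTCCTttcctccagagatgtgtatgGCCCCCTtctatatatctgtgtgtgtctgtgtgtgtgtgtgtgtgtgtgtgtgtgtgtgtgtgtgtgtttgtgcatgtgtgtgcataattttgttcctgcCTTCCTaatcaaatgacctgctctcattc
Rgs18 promoter, chr1:144775436-144775635: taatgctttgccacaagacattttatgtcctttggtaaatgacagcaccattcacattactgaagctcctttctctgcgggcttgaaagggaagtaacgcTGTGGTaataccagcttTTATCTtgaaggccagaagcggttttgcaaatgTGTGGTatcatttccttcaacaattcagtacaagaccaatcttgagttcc
The *Rgs2* window is 72.5% G and C with 26 CpG, against a median of 7 CpG over 21750 promoter windows, and 91.5% of those windows hold less G and C. It carries 3 SP/KLF strings, present in 37.8% of all windows, and 1 CRE string, present in 6.55%. The *Rgs1* window has 0 CpG and 41.0% G and C, and holds an unbroken run of 40 bases of TG repeat. It has 2 ETS strings, and this string stands in 24.4% of all windows, and 1 CTCF string, present in 24.2%. The *Rgs18* window has 3 CpG and 41.5% G and C, with 2 RUNX strings (10.5% of all windows) and 1 GATA string (6.81%). A match says only that these letters are present.

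Over the whole interval, chromatin was closed apart from short stretches. Of 1953 bins of 500 bp, 22 held at least 71 fragments, 10 times the mean of 7.05 over all bins, which is 1.13% of the bins against 1.39% of all bins of the genome. The weakest open bin had 71 fragments and the strongest one that was not open had 70. Joined where at most 1 bin lay between them, the open bins made 14 sites, of which 3 were promoters, 1 lay over the last exon of *Rgs1* and 10 were intergenic. These sites took 6341 of the 11862 fragments of the interval, or 53.5%, compared with 63.6% for all sites of the genome. The *Rgs1* to *Rgs21* gap, the longest at 267.405 kb, held 4 intergenic sites with 1430 fragments. The *Rgs21* to *Rgs18* gap of 185.015 kb held 1 site with 76, and none was found in the 100 kb beyond the *Rgs18* start.

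**Figure D1:**
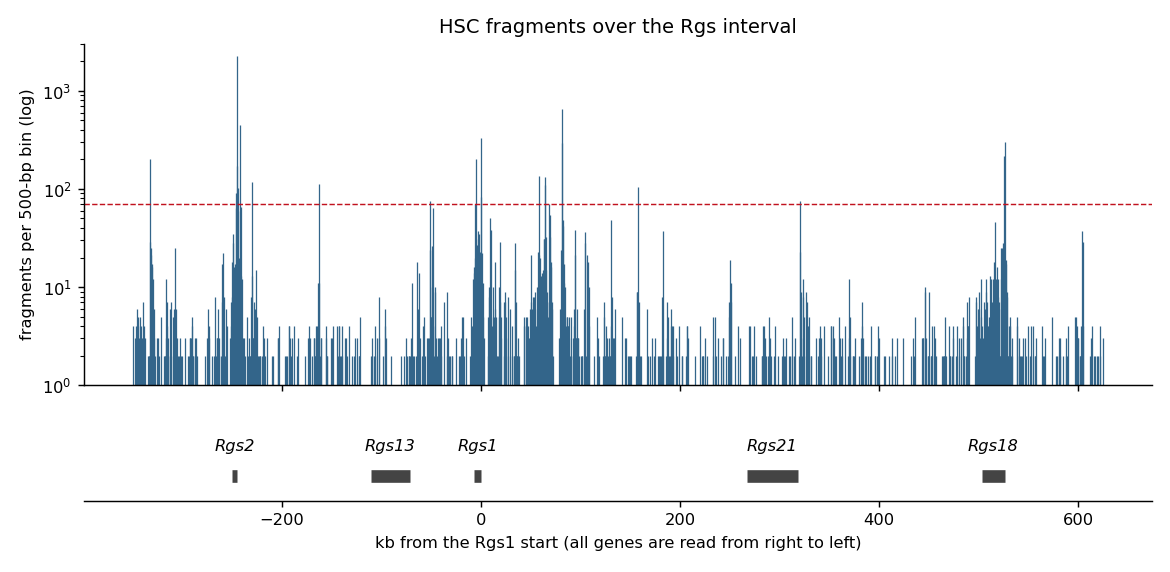
Fragments of 3108 HSCs per 500-bp bin (log axis) against the distance from the *Rgs1* start in kb; the dashed line is the 71 fragments that call a bin open, and gray bars are the 5 genes. The tallest bins stand at the *Rgs2* promoter and 81.4 kb upstream of *Rgs1*, and the bodies of *Rgs13* and *Rgs21* have no bin above the line.

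Of the 5 promoters 3 were open, compared with 55.5% of all protein-coding genes. The *Rgs2* promoter held 2447 fragments, 174 times the genome mean, in 51.1% of cells, more than 94.0% of all promoters. The *Rgs18* promoter held 518 fragments (36.7 times the mean) in 14.4% of cells. At the *Rgs1* promoter there were 405 fragments (28.7 times the mean) in 9.94% of cells. The other 2 promoters were closed: *Rgs13* had 4 fragments and *Rgs21* had 2, both below the mean of the genome. Per 10000 fragments of the library, the *Rgs18* promoter held 0.139 (0.128 to 0.152) and the *Rgs1* promoter 0.109 (0.0987 to 0.120), intervals that do not overlap, and *Rgs2* exceeded both with 0.659 (0.633 to 0.686).

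Counted over the gene body and 2000 bp upstream, the order among members was *Rgs2*, then *Rgs1* and *Rgs18*, then *Rgs21* and *Rgs13*. *Rgs2* had 2828 fragments, or 0.762 per 10000 fragments of the library (0.734 to 0.790), and 55.2% of cells had at least 1. *Rgs1* had 986, or 0.266 per 10000 (0.249 to 0.283), in 20.7% of cells (19.3% to 22.2%). *Rgs18* had 957, or 0.258 per 10000 (0.242 to 0.275), in 24.5% of cells (23.0% to 26.0%). The totals of *Rgs1* and *Rgs18* did not differ beyond counting error, but *Rgs1* was found in fewer cells. *Rgs21* had 118 fragments (0.0318 per 10000, 0.0263 to 0.0381) and *Rgs13* had 84 (0.0226 per 10000, 0.0180 to 0.0280), and these intervals overlap. One cell of 62680 fragments held 12 of the *Rgs13* fragments, and no other held more than 3; the deepest cell held 19 of the *Rgs2* fragments. Per kb of the counted window, the totals were 414 for *Rgs2*, 110 for *Rgs1*, 38.7 for *Rgs18*, 2.23 for *Rgs21* and 2.06 for *Rgs13*.

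Where the fragments lay in each gene differed too. The promoter window held 86.5% of the *Rgs2* fragments, 54.1% of those of *Rgs18* and 41.1% of those of *Rgs1*, but 4.76% of those of *Rgs13* and 1.69% of those of *Rgs21*. Fragment length, which the choice of genes did not use, separated them in a related way. Fragments shorter than the DNA wound on a nucleosome, called short here, made up 45.6% of all fragments and 57.7% of those in sites. They were 66.8% at *Rgs2* (65.1% to 68.6%), 48.1% at *Rgs18* (44.9% to 51.3%) and 47.6% at *Rgs1* (44.4% to 50.7%). In *Rgs13* they were 27.4% (18.2% to 38.2%) and in *Rgs21* 16.9% (10.7% to 24.96%), both intervals below the share over all fragments.

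Barcodes that were not called as cells gave a second reference. The origin of their fragments was not tested. At all sites together, the share of fragments was 1.76 times as high in cells as in those barcodes. *Rgs2* had a ratio of 1.72 (1.46 to 2.02) and *Rgs1* of 1.80 (1.36 to 2.38), close to that of sites in general. Over its whole body *Rgs18* had a ratio of 1.03 (0.830 to 1.28), whereas its promoter site had 1.75 (1.198 to 2.56). *Rgs21* had 0.659 (0.396 to 1.096) and *Rgs13* 0.285 (0.186 to 0.437), from 17 and 28 fragments outside cells. The share of *Rgs13* was thus lower in cells than outside them. No ratio was computed for closed chromatin in general, so neither value sets these genes apart. The 649 called cells below the limit, which the choice did not use, gave 0.9004 per 10000 at *Rgs2* (0.743 to 1.08), 0.204 at *Rgs1* (0.133 to 0.298) and 0.180 at *Rgs18* (0.114 to 0.270). *Rgs21* (6 fragments) and *Rgs13* (1 fragment) were again the lowest.

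The strongest sites outside promoters lay near *Rgs2* and upstream of *Rgs1*. The 3 shown are the intergenic sites with the most fragments, each as 200 bases around its center on the minus strand, with capitals as above.
81.4 kb upstream of Rgs1, chr1:144330530-144330729: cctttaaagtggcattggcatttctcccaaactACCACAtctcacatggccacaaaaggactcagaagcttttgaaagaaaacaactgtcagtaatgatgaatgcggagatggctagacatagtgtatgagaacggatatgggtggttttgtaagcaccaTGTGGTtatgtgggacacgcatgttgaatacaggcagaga
2.57 kb upstream of Rgs2, chr1:144006631-144006830: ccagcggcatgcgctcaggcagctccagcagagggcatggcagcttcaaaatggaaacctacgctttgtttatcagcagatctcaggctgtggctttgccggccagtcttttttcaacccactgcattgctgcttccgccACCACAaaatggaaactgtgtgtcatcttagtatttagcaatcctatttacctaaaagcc
64.2 kb upstream of Rgs1, chr1:144313309-144313508: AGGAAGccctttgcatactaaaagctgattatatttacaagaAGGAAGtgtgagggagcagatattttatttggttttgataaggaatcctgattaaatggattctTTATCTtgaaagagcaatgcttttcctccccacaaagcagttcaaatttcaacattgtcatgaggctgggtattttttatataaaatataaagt
The first carries 2 RUNX strings and the second 1, and the string stands in 17.8% of windows of this length at the 39034 sites of the genome. The last holds 2 ETS strings (33.3% of windows) and 1 GATA string (7.44%). The share of 500-bp open bins with each string was 29.8% for RUNX, 53.3% for ETS and 16.7% for GATA.

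The site 81.4 kb upstream of *Rgs1*, at chr1:144330001-144331000, was the second strongest of the interval after the *Rgs2* promoter. It held 950 fragments, or 0.256 per 10000 (0.240 to 0.273), in 23.4% of cells, nearly as many as the whole *Rgs1* gene and more than 82.2% of all sites. It lies between *Rgs1* and *Rgs21*, and its ratio of cells to other barcodes was 2.20 (1.61 to 3.01). Around *Rgs2*, the site 2.57 kb upstream held 453 fragments in 12.5% of cells, and 70.6% of them were short. Further ones lay 14.6 kb upstream (117 fragments), 82.1 kb upstream (112) and 87.4 kb downstream of the start (204). The site over the last exon of *Rgs1*, in the part annotated as 3′ UTR, at chr1:144243001-144244000, held 275 fragments, of which 48.0% were short (42.0% to 54.1%). The remaining sites upstream of *Rgs1* held 134 (58.0 kb) and 241 (64.2 kb). The nearest site to *Rgs13* lay 20.5 kb upstream with 76 fragments. For *Rgs21*, a site with 76 fragments lay 18.6 kb upstream of the principal start and 2.45 kb upstream of the start of its longest transcript, and one with 105 lay 145 kb downstream of the principal start.

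Of the 3 neighbors with enough fragments, *Rgs1* varied over cells the most beyond depth. The measure is the variance over cells divided by the variance expected if fragments fell on cells in proportion to their depth, where 1 means depth alone. It was 1.68 for *Rgs1*, 1.22 for *Rgs2* and 1.17 for *Rgs18*. Of these 3 genes 2 exceeded 1.2, compared with 84.6% of the 14954 genes with at least 300 fragments, so passing that limit sets no gene apart. The median gene had 1.29 and the 95th percentile was 1.54. *Rgs1* was above 98.3% of genes, *Rgs2* above 20.3% and *Rgs18* above 7.26%. Above 1.5, a limit set after the values were seen, stood *Rgs1* alone among the 3, against 6.96% of genes. *Rgs13* and *Rgs21* had too few fragments for the measure.

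**Figure D2:**
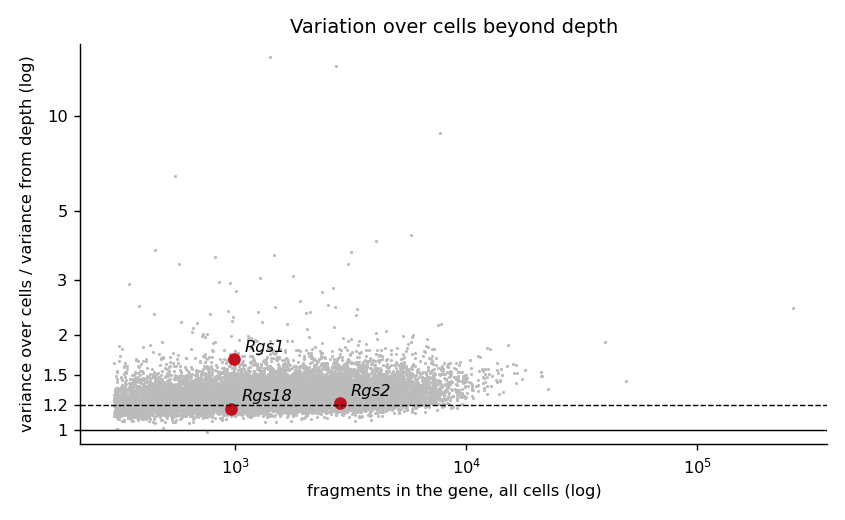
Variance over cells divided by the variance from depth (log axis) against the fragments of each gene (log axis), for 14954 protein-coding genes in gray and *Rgs1*, *Rgs2* and *Rgs18* in red; the solid line is 1 and the dashed line 1.2. *Rgs1*, at 1.68, lies in the upper fringe of the cloud, and *Rgs2* (1.22) and *Rgs18* (1.17) lie along its lower side.

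The excess at *Rgs1* came as more empty cells together with more cells rich in fragments. For *Rgs1*, 2464 cells had no fragment where depth gave 2283, 439 had 1 where depth gave 688, and 126 had 2 where depth gave 118. As many as 79 cells had 3 or more where depth gave 19, and 16 had 5 or more where depth gave 0.912. *Rgs18*, with nearly the same total, had 29 cells with 3 or more where depth gave 17.6, and 0 with 5 or more where depth gave 0.848. For *Rgs2*, 259 cells had 3 or more where depth gave 229. The fragments per 10000 at *Rgs1* were level with depth, being 0.262, 0.254 and 0.275 in the shallow, middle and deep terciles of cells.

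**Figure D3:**
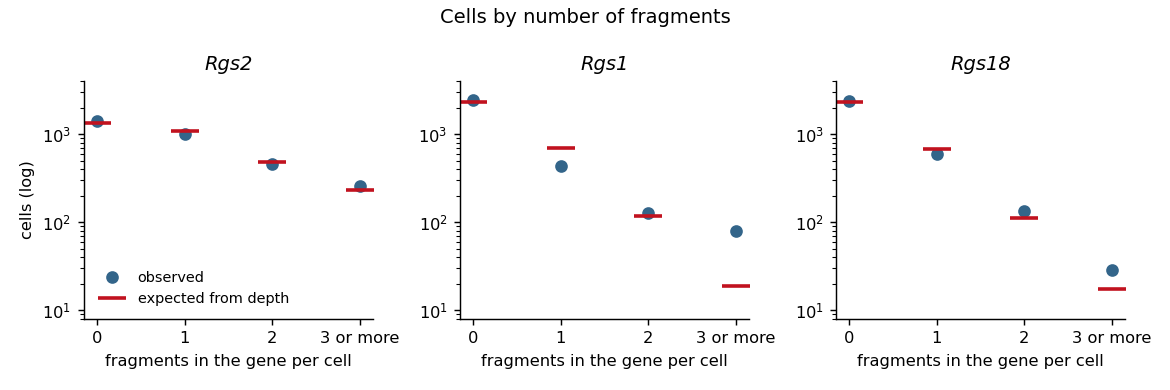
Cells (log axis) by the number of fragments they held in *Rgs2*, *Rgs1* and *Rgs18*, for 3108 HSCs; points are observed cells and bars the number expected from depth. At *Rgs1*, 79 cells had 3 or more fragments against 19 expected, while *Rgs2* had 259 against 229 and *Rgs18* 29 against 17.6.

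Of the 14 sites, 5 had at least 300 fragments, and among these the *Rgs1* promoter led by the same measure. None of the 5 exceeded 1.5, against 1.58% of such sites in the genome. The site 18.6 kb upstream of the principal *Rgs21* start had 1.43, but from 76 fragments, too few for this comparison. The *Rgs1* promoter site had 1.38, above 91.1% of sites, with 20 cells of 3 or more fragments where depth gave 2.04. The site 81.4 kb upstream had 1.22, above 43.2% of sites, with 37 such cells where depth gave 17.3. The *Rgs2* promoter site had 1.18, the *Rgs18* promoter site 1.15 and the site 2.57 kb upstream of *Rgs2* 1.1.

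For the 3 open genes, the number of cells in which neighbors were open together differed from that given by depth by less than counting error. *Rgs1* and *Rgs18* both had a fragment in 169 cells where depth gave 175, a ratio of 0.967 (0.827 to 1.12). The ratio was 0.986 (0.889 to 1.09) for *Rgs2* with *Rgs1*, and 0.978 (0.888 to 1.07) for *Rgs2* with *Rgs18*. For all 10241 adjacent gene pairs with at least 100 expected cells, the middle 90% ran from 0.959 to 1.11. No such range was computed for pairs with a site. Among these, *Rgs1* and the site 81.4 kb upstream of it shared 206 cells where depth gave 168, a ratio of 1.23 (1.07 to 1.41). The same site had 1.03 (0.934 to 1.13) with *Rgs2* and 0.914 (0.785 to 1.06) with *Rgs18*. A still higher ratio, 1.70 (1.33 to 2.13), was found for *Rgs1* with the site 87.4 kb downstream of *Rgs2*, which shared 74 cells where depth gave 43.6. That site lies 332 kb from the *Rgs1* start, and with *Rgs2*, its nearest gene, its ratio was 1.05 (0.867 to 1.26). The *Rgs1* promoter and last-exon sites shared 44 cells where depth gave 27.4 (1.61, 1.17 to 2.15). In all, 49 pairs were computed, and no interval was widened for their number.

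The 79 cells with 3 or more *Rgs1* fragments were set against the other 3029. By construction *Rgs1* and its own sites are higher in them. Of the sites outside the gene, the one 81.4 kb upstream had 0.403 per 10000 in these cells and 0.251 in the others, a ratio of 1.61 (1.21 to 2.14). The site 58.0 kb upstream had a ratio of 2.33 (1.22 to 4.44) from 10 fragments, and the one 87.4 kb downstream of *Rgs2* had 2.29 (1.36 to 3.88) from 15. The site 14.6 kb upstream of *Rgs2* had 2.12 (1.03 to 4.35) from 8. The share of all sites of the genome with such intervals was not computed, so these sites are not set apart from others. *Rgs2* had 0.972 (0.790 to 1.197) and *Rgs18* 0.807 (0.547 to 1.19), so neither differed beyond counting error. These cells had a median of 12917 fragments and 4160 RNA molecules, compared with 11387 and 3851 in the others.

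**Figure D4:**
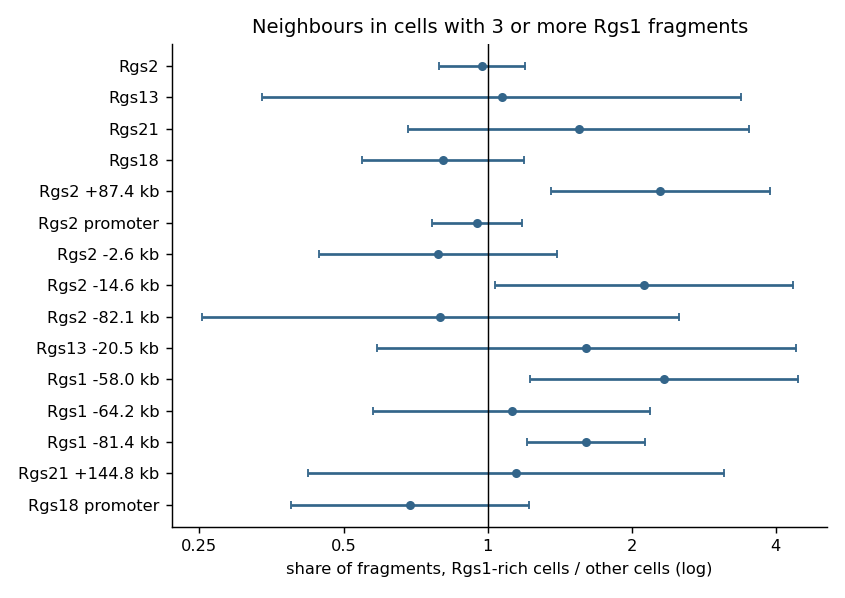
Share of fragments in the 79 cells with 3 or more *Rgs1* fragments divided by the share in the other 3029 cells (log axis), for the other members and for sites outside *Rgs1* with at least 3 fragments in those cells; bars are 95% counting intervals. The sites 58.0 and 81.4 kb upstream of *Rgs1* and 14.6 kb upstream and 87.4 kb downstream of *Rgs2* have intervals above 1, and *Rgs2* and *Rgs18* have intervals that include it. The share of all sites of the genome with intervals above 1 was not computed.

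Markers of other cells were read in the same 79 cells. The 4 T cell markers together had a ratio of 1.28 (1.06 to 1.53), with a summed 0.983 per 10000 in these cells and 0.770 in the others. *Lck*, a kinase of T cell receptor signaling, held 110 of their 122 fragments, *Cd3e* held 5, *Cd3g* held 7 and *Cd8a* held 0. Over all 3108 cells, the *Lck* promoter window held 87 fragments and the whole gene 2600. Non-blood markers had a ratio of 1.09 (0.734 to 1.61). B cell markers had a ratio of 1.01 (0.843 to 1.203), granulocyte markers 0.907 (0.560 to 1.47), megakaryocyte markers 0.982 (0.867 to 1.11), erythroid markers 0.798 (0.645 to 0.986) and HSC markers 0.934 (0.884 to 0.987). Cells stained by a lineage cocktail (B220, CD4, CD8, Mac-1, Gr-1, Ter119 and CD5) are gated out in the study's LSK sort. The part of other cells in the *Rgs1* pattern was not tested.

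The genes whose fragments over the 3108 cells were most like those of *Rgs1* were named after the values were seen, by the Pearson r of depth-scaled counts. *Nr4a1*, an orphan nuclear receptor induced within minutes of stimulation, came first with an r of 0.13, then *Chst11* (0.10) and *Kdm6b*, a histone demethylase (0.095). *Chad* (0.089), *Hes1* (0.089), *Lrp1* (0.085), *Zfp36* (0.084) and *Adam3* (0.081) made up the rest of the first 8, which include a cartilage protein (*Chad*), an endocytic receptor (*Lrp1*) and a gene known from sperm (*Adam3*). Over the 14951 genes ranked, the 99th percentile of r with *Rgs1* was 0.051. The genes ranked first for *Rgs2* and for *Rgs18* had 0.091 and 0.080. *Nr4a1* had 3.12 per 10000 in the 79 cells and 2.05 in the others, a ratio of 1.52 (1.37 to 1.69), which follows in part from its choice. All r are weak, and the points share 1 library. Whether sparse counts lower r was not tested. Among members, r was -0.013 for *Rgs1* with *Rgs2*, -0.016 for *Rgs1* with *Rgs18* and 0.0081 for *Rgs2* with *Rgs18*.

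Platelet-biased (PLT) and multilineage (MUL) HSC clones of other mice gave gene lists in the study, and cells were split into 3 nearly equal groups (terciles) by the share of their fragments on PLT genes among those on both lists. The share rests on 62 PLT and 52 MUL genes off chromosome 1 and a median of 68 fragments per cell. The lists come from differences in RNA between clones, whereas ATAC fragments on the genes were counted here. The study itself classed its clusters of cells by chromatin signatures of the clones. Whether the share used here follows platelet bias was not tested. *Rgs1* had its smallest share of fragments in the tercile with the highest PLT share. It had 0.287 per 10000 (0.258 to 0.318) in the lowest tercile of 1062 cells, 0.284 (0.255 to 0.315) in the middle tercile of 1009 and 0.224 (0.198 to 0.252) in the highest tercile of 1037. The log2 difference of the highest from the lowest tercile was -0.36 (-0.58 to -0.13), lower than in all but 3.14% of genes, but short of the 1.5-fold set for a call. With cells split at the median it was -0.13 (-0.31 to 0.05). The 79 cells with 3 or more *Rgs1* fragments fell as 23, 38 and 18 in the lowest, middle and highest tercile, and their median PLT share was 60.9%, against 60.3% in the other cells. Over all their fragments, the ratio of these cells to the others was 0.957 (0.929 to 0.985) for PLT genes and 0.986 (0.951 to 1.02) for MUL genes. At its promoter site the difference was -0.51 (-0.87 to -0.14), whereas the site 81.4 kb upstream had -0.00 (-0.23 to 0.22). Together 3 of the 14 sites, the *Rgs1* promoter among them, had intervals off 0, compared with 10.5% of 37331 sites of the genome. The other 2 had over 1.5-fold more in the highest tercile, as had 2.25% of those sites, and rest on few fragments. These were the site 82.1 kb upstream of *Rgs2*, with 45 fragments against 24 (0.97, 0.25 to 1.68), and the site 18.6 kb upstream of the *Rgs21* start, with 33 against 19 (0.86, 0.04 to 1.67). Neither *Rgs18* (-0.09, -0.31 to 0.14) nor *Rgs2* (-0.00, -0.13 to 0.13) differed beyond counting error.

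**Figure D5:**
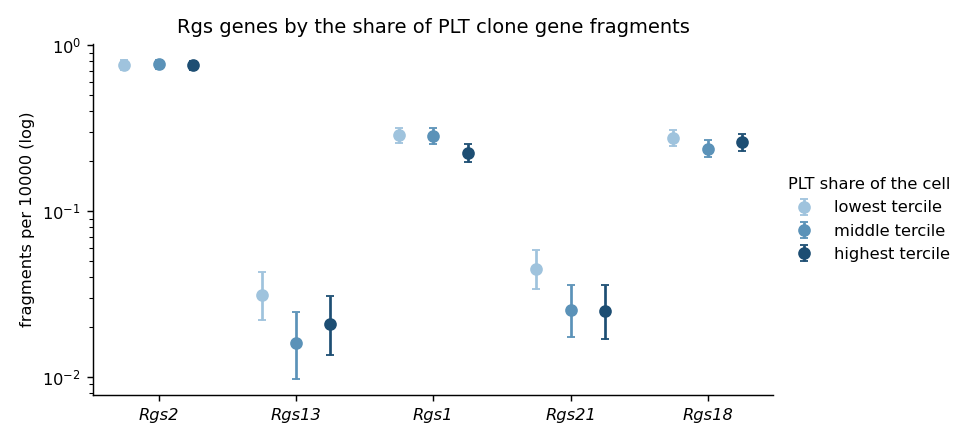
Fragments per 10000 (log axis) at the 5 *Rgs* genes in the lowest, middle and highest tercile of HSCs by their share of PLT clone gene fragments; bars are 95% counting intervals. *Rgs1* stands at 0.224 in the highest tercile against 0.287 in the lowest, and *Rgs2* and *Rgs18* are level.

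One member was called, *Rgs21*, against 1.1% of the 16909 genes with at least 50 fragments in the 2 outer terciles. It had 30 fragments in the highest tercile and 56 in the lowest, a log2 difference of -0.84 (-1.48 to -0.20), and the call was lost without the 5% of cells with the most fragments (-0.51, -1.18 to 0.17). *Rgs13* had 25 against 39, a difference of -0.58 (-1.31 to 0.14). Of those 25, 12 were from the single cell named above, and without it *Rgs13* had 13 against 39, a difference of -1.52 (-2.42 to -0.61) that was called.

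The rest of the signaling chain was read for comparison. Of 16 other RGS genes 8 had an open promoter, near the 55.5% of all genes, with *Rgs9* (58.1 times the mean), *Rgs19* (55.1) and *Rgs12* (54.1) the highest and *Rgs5* (0.709), *Rgs4* (0.851) and *Rgs17* (4.33) the lowest. The *Rgs2* promoter, at 174 times the mean, stood above all 16. In dispersion, 2 of the 14 other RGS genes with enough fragments exceeded 1.5, *Rgs11* at 1.54 and *Rgs6* at 1.51, both below *Rgs1* at 1.68, beside 6.96% of all genes above that limit. All 12 G alpha genes of the list, which covers several classes of subunit and not only those that RGS proteins act on, had open promoters, led by *Gna11* (295 times), *Gnaz* (161) and *Gna12* (135), with *Gna14* (18.2), *Gnao1* (22.8) and *Gnai1* (37.2) the lowest. Of 13 receptor genes 10 were open, again beside 55.5% of all genes, led by *Ptger4* (106), *F2r* (104) and *Cxcr4* (100.2), the chemokine receptor that retains HSCs in marrow. The lowest were *P2ry12*, the platelet ADP receptor, at 1.42 times the mean, *Adra2a* at 7.16 and *Ptgir* at 7.87.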

How the data were processed

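The authors ran Cell Ranger ARC 2.0.2 on the mm10 reference, which merges duplicate read pairs into fragments and calls cells from both chromatin and RNA. They deposited the position of every fragment with its count of read pairs, and counts of fragments and RNA UMIs per barcode; no value is normalized. RNA counts per gene and antibody tags were not used here. The members and gene lists were chosen with earlier results of these data known.

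Fragments were placed by their midpoint on chromosomes 1 to 19 and X, with genes from GENCODE vM21 and sequence from GRCm38, and no fragment ended beyond its chromosome. Python 3.11.15, numpy 2.4.6 and scipy 1.17.1 were used. The dispersion and the log2 ratio between sets of cells were tested on simulated counts. Doublets were kept. Intervals were exact Poisson or binomial, and ratios between sets of cells used a normal approximation on the log scale. Expected cells came from each cell's depth. Genes named were the members and the 3 highest and 3 lowest promoters of the RGS, G alpha and receptor lists; marker lists are given as counts. HSC and T cell markers named singly, the genes most like *Rgs1*, and *Rgs6* and *Rgs11* were chosen after their values were seen. For the PLT and MUL lists, genes of chromosome 1 and 6 names missing from the protein-coding annotation were left out. Matches of short strings were counted in windows of equal length and in open bins.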

Additional observations from a re-analysis of the deposited data

How the results depend on the processing

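No paired analysis was possible because there is 1 preparation. The number of open bins, 22, was 10 at 20 times the mean and 10 with 1000-bp bins, which are fewer and wider by construction; it was 21 with all called cells and 20 with fragment ends. The summed share of the 5 genes, 1.34 per 10000, was the same with fragment ends and with all called cells. Of 3 members 2 exceeded a dispersion of 1.2, and 1, *Rgs1*, did so without the 5% of cells with the most fragments, with depth taken from peaks, after thinning to 5000 fragments, in the promoter window, from summed squares, and above 1.5, the last chosen after the data were seen, as was leaving out the deepest cell, which kept 2. The share of all genes above 1.2 moved as well, from 14.9% after thinning and 61.1% in the promoter window to 89.5% from summed squares, so a count of 1 is not the same result in each. *Rgs1* ranged from 1.35 (thinned, above 99.04% of genes) to 1.77 (summed squares, above 97.3%). *Rgs2* ranged from 1.12 to 1.23 and *Rgs18* from 1.04 to 1.17. Between terciles by PLT share, 1 member, *Rgs21*, was called. By the share of PLT genes and megakaryocyte markers in all fragments 2 were, with *Rgs13* at -1.64, beside 2.47% of 16940 genes. Without the cell with the most *Rgs13* fragments, a setting chosen after the data were seen, 2 were called, with *Rgs13* at -1.52, beside 1.07% of genes, and without the deepest cell 1. Without the 5% of cells with the most fragments the count was 0, as *Rgs13*, with 11 fragments against 34, was under the least number of 50. It was 0 with all called cells, 0 when cells were split at the median and 0 in the promoter window, where *Rgs13* and *Rgs21* have too few fragments to be called. The difference at *Rgs1* was negative throughout, from -0.41 in the promoter window to -0.13 at the median split, where its interval (-0.31 to 0.05) took in 0. The causes of these changes were not tested. *Rgs13* and *Rgs21* rest on 84 and 118 fragments, and their calls change with which cells are kept; 1 library leaves the spread between animals unknown.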
